A study of Homo sapiens with 6 samples.

Results

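A set of 10 genes that the ERK pathway switches on, either to restrain itself or as part of its output, was followed in a renal cancer cell line after knockdown of YB1. They are 3 dual-specificity phosphatases (DUSP4, DUSP5 and DUSP6), 2 Sprouty genes (SPRY2 and SPRY4), 2 Spred genes (SPRED1 and SPRED2), 2 ETS transcription factors (ETV4 and ETV5) and PHLDA1. They were chosen by name as markers of ERK output, with earlier results of these data known. All 10 were found among the 20030 genes of the deposited table. mRNA was sequenced from 786-O cells, an established human line from a clear cell renal carcinoma that lacks functional VHL. Cells with stable lentiviral expression of an shRNA against YB1 (shYB1, 3 libraries) were compared with cells carrying a scrambled shRNA in the same kind of vector (vector, 3 libraries). Both groups went through puromycin selection and were labelled with passages 16 to 18. More than one YB1 shRNA is mentioned in the design text of the series, but the labels distinguish none. The libraries labelled shYB1 were therefore taken as 3 replicates, and whether they carry different shRNAs is unknown. Nothing in the labels says that the libraries came from separate infections. The p-values then measure only the spread between these libraries, which may be technical or, within shYB1, between shRNAs.

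ERK is the last kinase of the cascade in which receptor tyrosine kinases activate RAS, RAF and MEK. Active ERK switches on transcription of its own inhibitors: dual-specificity phosphatases remove the activating phosphates from ERK and related kinases, while Sprouty and Spred proteins act higher up, between the receptors and RAF. The mRNAs of these inhibitors, of the PEA3-type ETS factors and of PHLDA1 are therefore widely read as a record of recent ERK signaling. In clear cell renal carcinoma, receptor tyrosine kinases that feed this cascade are the targets of drugs such as sunitinib, and the study is about YB1 and another receptor of this class, EphA2.

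YBX1, the gene of YB1, served as the check of the labels, with 366.5 to 377.9 FPKM in the vector libraries and 165.9 to 173.3 FPKM in the shYB1 libraries. FPKM are fragments per kilobase of transcript, scaled to the mapped fragments of each library, so levels of different genes can be set side by side. The total over all genes was 282736 to 295887 FPKM per library, and the number of fragments behind each value is unknown. The spacing of the lowest values gave only relative depths, from 0.971 to 1.09 times that of shYB1 replicate 1. Of 9 markers of renal tumor epithelium, 9 had a mean of at least 1 FPKM, whereas CD3E, MS4A1, CDH5 and HBB, markers of T cells, B cells, endothelium and red cells, were listed at 0 in all 6 libraries. LYZ and LUM, markers of myeloid cells and fibroblasts, were the highest of the other markers of non-epithelial cells, at up to 2.87 and 2.35 FPKM. The summed leukocyte markers were 0.680 to 3.22 FPKM in the vector libraries and 0.597 to 1.69 FPKM in the shYB1 libraries, and the fibroblast markers 1.84 to 2.20 and 2.30 to 2.37 FPKM. For the endothelial markers the sums were 0.365 to 0.406 FPKM in the vector libraries and 0.240 to 0.326 FPKM in the shYB1 libraries. The part of any of these in the results below was not tested.

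Most of the ERK feedback and output genes were higher in shYB1 cells. Fold changes were measured on log2(FPKM + 0.1) for 10439 genes whose mean over the libraries reached 1 FPKM, with limma and Benjamini-Hochberg adjustment over all of them. Of the 9 members that passed this filter, 8 were called higher in shYB1 cells with an adjusted p below 0.05, 0 were lower, as all 9 fold changes were above 0, and SPRED2 did not pass. Over all genes tested, 18.7% were higher and 6.93% lower by the same rule, or 25.7% in either direction. SPRY4 was under the filter and was not tested there. In all 10 members the 3 shYB1 libraries lay above the 3 vector libraries, which was the case for 30.1% of all genes tested. The log2 fold changes of the 9 members tested ran from 0.16 to 0.53 with a median of 0.36, against a median of 0.055 over all genes tested. The size of these differences was modest, and no member reached a fold change of 2. Of the 10439 genes, 4 did so in the higher direction with an unadjusted p below 0.05 from limma (0.0383%). Because all genes together leaned upward in the deposited values, the libraries were also rescaled by median-of-ratios size factors, which brought the median of all genes tested to 0.00099. The median of the 9 members was then 0.30, and 7 of them were called higher, against 11.4% of all genes tested, with SPRED1 no longer called.

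**Figure D1:**
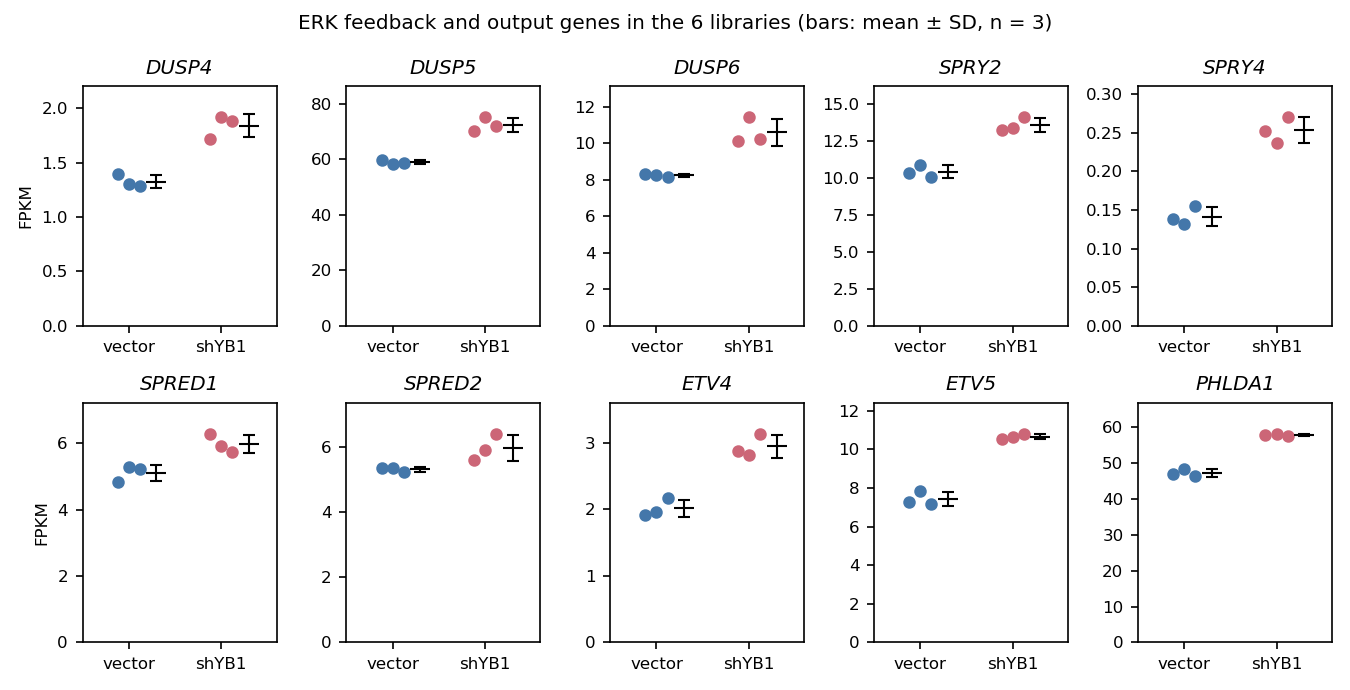
FPKM of each of the 10 genes in the 3 vector libraries (blue) and the 3 shYB1 libraries (red), each panel on its own axis from 0, with the mean ± SD (n = 3) as a black bar beside the points. In every panel all red points lie above all blue points, with the narrowest gap for SPRED2 relative to its level.

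The 10 genes covered a wide span of levels. In vector cells DUSP5 came first at 59.0 ± 0.655 FPKM (SD, n = 3, as for all values given with ±), followed by PHLDA1 at 47.2 ± 1.13 FPKM, SPRY2 at 10.4 ± 0.436 FPKM, DUSP6 at 8.24 ± 0.0950 FPKM and ETV5 at 7.42 ± 0.365 FPKM. SPRED2 at 5.33 ± 0.0697 FPKM and SPRED1 at 5.11 ± 0.248 FPKM came next and overlapped in their ranges. ETV4 at 2.01 ± 0.132 FPKM, DUSP4 at 1.32 ± 0.0588 FPKM and SPRY4 at 0.141 ± 0.0124 FPKM were the lowest. Every other pair of neighbors in this order was separated in all 3 vector libraries. By mean FPKM, DUSP5 and PHLDA1 stood above 96.0% and 94.8% of the genes detected in any library, whereas SPRY4 stood above 24.1%. In shYB1 cells the order was the same except that ETV5, at 10.7 ± 0.138 FPKM, drew level with DUSP6, at 10.6 ± 0.721 FPKM, with overlapping ranges.

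In the deposited annotation, DUSP4, SPRY2, SPRY4 and SPRED1 carry the GO term for negative regulation of the ERK cascade (4 of 10), DUSP4, SPRED1 and SPRED2 that for inactivation of MAPK activity (3 of 10), and DUSP4, DUSP5 and DUSP6 belong to the KEGG MAPK signaling pathway (3 of 10). DUSP6, ETV4 and ETV5 share the KEGG pathway of transcriptional misregulation in cancer (3 of 10), and DUSP6 and ETV4 carry 0 GO terms.

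YB1 is named for the Y box, an inverted CCAAT element to which it was first found to bind, so the start regions of the members were searched for this element and for sites of ETS factors and AP-1, through which ERK acts on transcription. RefSeq promoter windows (GRCh38.p14, 250 bases before to 50 bases after a transcript start) were matched by symbol for 6 of the 10 genes, in 9 windows. DUSP4, DUSP5, ETV4 and ETV5 had no window. The letters searched on both strands were CCAAT or ATTGG for the Y box, CCGGAAG or CTTCCGG for ETS, and TGANTCA for AP-1. Of all 35116 windows of this length, 34.6% held a Y box, 10.3% the ETS letters and 7.71% the AP-1 letters. Among the members, DUSP6 and SPRED2 held a Y box and SPRED2 also held AP-1 letters, whereas SPRY2, SPRY4, SPRED1 and PHLDA1 held none of the 3 in their windows. A selection of 3 windows is shown, the only 2 with a match and that of the high-expressed PHLDA1 as one without, in the direction of the gene and with matches in capitals.
DUSP6, chr12:89352452-89352751, minus strand, with a Y box 46 bases before the start: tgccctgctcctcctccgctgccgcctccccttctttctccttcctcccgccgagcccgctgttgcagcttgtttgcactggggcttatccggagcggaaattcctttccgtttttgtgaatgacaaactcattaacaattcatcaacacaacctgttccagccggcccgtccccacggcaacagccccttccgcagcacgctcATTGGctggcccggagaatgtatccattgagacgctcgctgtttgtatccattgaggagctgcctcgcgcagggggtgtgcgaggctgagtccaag
SPRED2, inner start, chr2:65366729-65367028, minus strand, with Y boxes 162 and 119 bases before the start and AP-1 letters 6 bases before and 34 bases after it: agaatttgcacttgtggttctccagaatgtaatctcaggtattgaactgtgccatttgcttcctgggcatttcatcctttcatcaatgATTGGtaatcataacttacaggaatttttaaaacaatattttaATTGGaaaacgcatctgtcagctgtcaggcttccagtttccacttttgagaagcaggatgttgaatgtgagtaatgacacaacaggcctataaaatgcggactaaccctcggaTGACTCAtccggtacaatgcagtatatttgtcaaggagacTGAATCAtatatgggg
PHLDA1, chr12:76031727-76032026, minus strand, with no match: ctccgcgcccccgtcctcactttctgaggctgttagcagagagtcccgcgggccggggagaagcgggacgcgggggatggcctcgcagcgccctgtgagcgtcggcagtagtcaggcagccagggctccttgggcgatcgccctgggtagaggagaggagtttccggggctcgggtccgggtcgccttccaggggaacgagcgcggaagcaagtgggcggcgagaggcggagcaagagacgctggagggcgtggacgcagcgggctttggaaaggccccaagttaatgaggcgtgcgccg
The 2 genes with a Y box differed in outcome, since DUSP6 was called higher and SPRED2 was not, and a match of letters is a description of the window only.

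The dual-specificity phosphatases were measured next. DUSP6, a cytoplasmic phosphatase with a strong preference for ERK, is encoded on the minus strand of chromosome 12 (GRCh38, 89347232 to 89353271). The vector libraries, in the order of replicates 1 to 3 as for all genes that follow, gave 8.34, 8.25 and 8.15 FPKM, and the shYB1 libraries 10.1, 11.4 and 10.2 FPKM. The vector libraries were almost equal, and shYB1 replicate 2 stood above the other shYB1 libraries. DUSP6 was 28.6% higher in shYB1 cells (log2 fold change 0.36, standard error 0.056, 95% confidence interval 0.23 to 0.48, adjusted p = 0.00160 from limma). An annotated antisense transcript, AC024909.2, shares 1875 bases of exon with DUSP6 on the other strand, and since the sources used here do not say whether strand was used in counting, its reads cannot be told apart from those of DUSP6.

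DUSP5, a nuclear phosphatase that inactivates and anchors ERK, is encoded on the plus strand of chromosome 10 (110497838 to 110511544). The vector libraries gave 59.7, 58.5 and 58.7 FPKM, and the shYB1 libraries 70.1, 75.2 and 72.0 FPKM. As for DUSP6, shYB1 replicate 2 was the highest library, and the groups were 10.4 FPKM apart. DUSP5 rose by 22.8% (log2 fold change 0.30, standard error 0.035, adjusted p = 0.000301 from limma). DUSP5 made up 86.0% of the summed FPKM of the 3 phosphatases in vector cells and 85.3% in shYB1 cells, so the summed level, 68.1 to 69.5 FPKM in the vector libraries and 81.9 to 88.6 FPKM in the shYB1 libraries, is mostly that of DUSP5.

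DUSP4, a nuclear phosphatase that acts on ERK, JNK and p38, is encoded on the minus strand of chromosome 8 (29333064 to 29350668). With the vector it measured 1.39, 1.30 and 1.28 FPKM, and with shYB1 1.72, 1.92 and 1.88 FPKM. Although its level was the lowest of the 3 phosphatases, the groups did not overlap, and the relative rise was 38.8% (log2 fold change 0.44, standard error 0.090, adjusted p = 0.00577 from limma). With a pseudocount of 1 in place of 0.1, close to the level itself, its log2 fold change was 0.29 and the call was kept (adjusted p = 0.00562 from limma).

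Among the Sprouty genes, which encode inhibitors of receptor tyrosine kinase signaling to RAS and RAF, SPRY2 was by far the more abundant. It is encoded on the minus strand of chromosome 13 (80335976 to 80340951). The vector libraries gave 10.4, 10.9 and 10.1 FPKM, and the shYB1 libraries 13.3, 13.4 and 14.1 FPKM. The libraries of each group lay close together, and the gap between the groups was 2.35 FPKM. SPRY2 rose by 30.3% (log2 fold change 0.38, standard error 0.050, adjusted p = 0.000546 from limma).

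SPRY4 is encoded on the minus strand of chromosome 5 (142310427 to 142326455). With the vector it measured 0.138, 0.131 and 0.155 FPKM, and with shYB1 0.253, 0.236 and 0.270 FPKM. Every shYB1 library was higher than every vector library, and the ratio of the mean FPKM was 1.79, the largest of the 10 genes. At such a level a few fragments decide a value, and their number is unknown. With no filter on low values SPRY4 was called higher (log2 fold change 0.55, standard error 0.12, adjusted p = 0.0254 from limma over 15988 genes, of which 9.89% were called higher and 3.85% lower), on a scale where the pseudocount of 0.1 understates the change of such a low gene.

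The Spred genes encode membrane-associated relatives of the Sprouty proteins, and SPRED1 is known for bringing neurofibromin, an inactivator of RAS, to the membrane. SPRED1 is encoded on the plus strand of chromosome 15 (38252326 to 38357249). The vector libraries gave 4.83, 5.28 and 5.22 FPKM, and the shYB1 libraries 6.29, 5.93 and 5.74 FPKM. The groups were 0.453 FPKM apart, about the spread within each of them. SPRED1 rose by 17.1% (log2 fold change 0.22, standard error 0.062, adjusted p = 0.0242 from limma). Other genes hold 1.35% of the 50-base words of its transcripts. This call was close to the threshold: the adjusted p from limma was 0.0653 after median-of-ratios scaling, 0.0658 after quantile normalization, 0.0887 without shYB1 replicate 1, 0.0615 without shYB1 replicate 2 and 0.0864 without vector replicate 1, within a range of 0.0175 to 0.0887 over 15 alternatives.

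SPRED2 is encoded on the minus strand of chromosome 2 (65310851 to 65432637). With the vector it measured 5.35, 5.38 and 5.25 FPKM, and with shYB1 5.62, 5.93 and 6.42 FPKM. The vector libraries were tight, the shYB1 libraries were more spread out, and the lowest of them was 0.240 FPKM above the highest vector library. At a mean difference of 12.4%, the test was not passed (log2 fold change 0.16, standard error 0.062, 95% confidence interval 0.026 to 0.30, adjusted p = 0.0768 from limma). SPRED2 did not pass in any of the 15 alternatives, with adjusted p of 0.0560 to 0.251.

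The largest relative differences among the 9 tested genes were those of the ETS factors ETV4 and ETV5, members of the PEA3 subfamily that are both targets of ERK signaling and activators of transcription. ETV5 is encoded on the minus strand of chromosome 3 (186046308 to 186110318). The vector libraries gave 7.28, 7.84 and 7.15 FPKM, and the shYB1 libraries 10.5, 10.6 and 10.8 FPKM. The shYB1 libraries were nearly equal and 2.69 FPKM above the highest vector library. ETV5 rose by 43.6% and had the smallest adjusted p of the members (log2 fold change 0.52, standard error 0.052, adjusted p = 0.000106 from limma). ETV5 shares 164 bases of exon with DGKG on the same strand, and 1.96% of the 50-base words of its transcripts occur in other genes.

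ETV4 is encoded on the minus strand of chromosome 17 (43527844 to 43579620). With the vector it measured 1.91, 1.97 and 2.16 FPKM, and with shYB1 2.88, 2.82 and 3.14 FPKM. The groups did not overlap, although ETV4 was much less abundant than ETV5, and the rise was 46.1% (log2 fold change 0.53, standard error 0.082, adjusted p = 0.00149 from limma). It shares 68 bases of exon with DHX8 on the other strand. ETV4 and ETV5 stood above 99.1% and 99.0% of all genes tested by log2 fold change. ETV1, the remaining gene of the PEA3 subfamily, measured 10.6 ± 0.633 FPKM with the vector and 11.4 ± 0.448 FPKM with shYB1, with overlapping groups (log2 fold change 0.11, standard error 0.056, adjusted p = 0.186 from limma).

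PHLDA1, a pleckstrin homology-like protein that is induced by ERK signaling, is encoded on the minus strand of chromosome 12 (76025447 to 76033932). The vector libraries gave 46.9, 48.5 and 46.3 FPKM, and the shYB1 libraries 57.8, 58.2 and 57.6 FPKM. The shYB1 libraries were nearly equal, and the gap between the groups was 9.14 FPKM. PHLDA1 rose by 22.5% (log2 fold change 0.29, standard error 0.033, adjusted p = 0.000199 from limma). Antisense transcripts of 2 annotated genes share 1332 bases of exon with PHLDA1 on the other strand. Its relative PHLDA2 rose as well, from 24.3 ± 3.20 to 33.6 ± 4.24 FPKM (log2 fold change 0.47, standard error 0.11, adjusted p = 0.0176 from limma), but with a wider spread, and the adjusted p was 0.0606 without shYB1 replicate 2, 0.0595 without vector replicate 1 and 0.0612 without vector replicate 2.

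**Figure D2:**
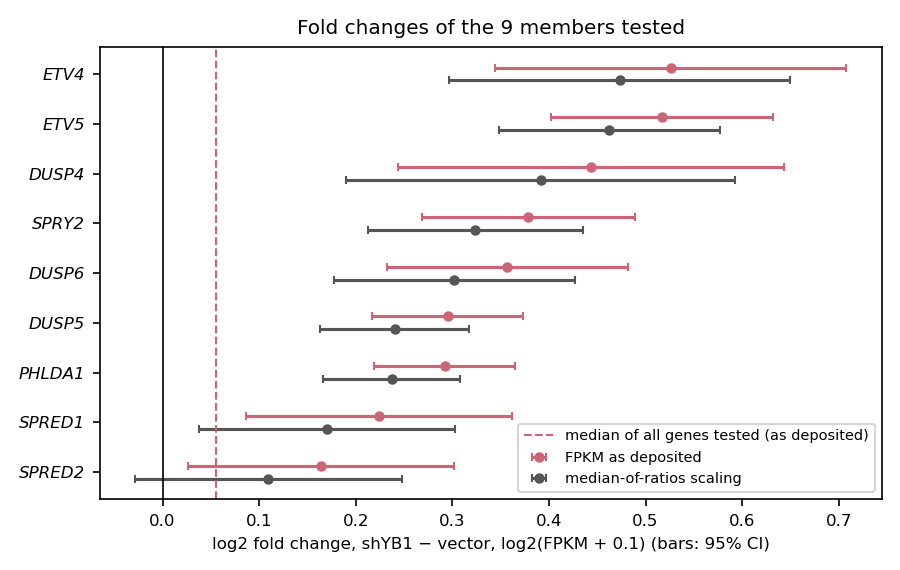
Log2 fold change (shYB1 minus vector, on log2(FPKM + 0.1)) of the 9 members tested, with 95% confidence intervals from limma, for FPKM as deposited (red) and after median-of-ratios scaling (grey). The dashed line marks the median of all genes tested, 0.055 for the deposited values. Rescaling moves every member to the left by nearly the same amount, and the interval of SPRED2 then includes 0.

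The members differed in how far they stood above the other genes. Measured from the median of all genes, the log2 fold changes were 0.47 for ETV4, 0.46 for ETV5, 0.39 for DUSP4, 0.32 for SPRY2, 0.30 for DUSP6, 0.24 for both DUSP5 and PHLDA1, 0.17 for SPRED1 and 0.11 for SPRED2. Of the 9 members, 5 lay above the 95th percentile of all genes tested, a log2 fold change of 0.34. The Spred genes came last under both scalings.

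**Figure D3:**
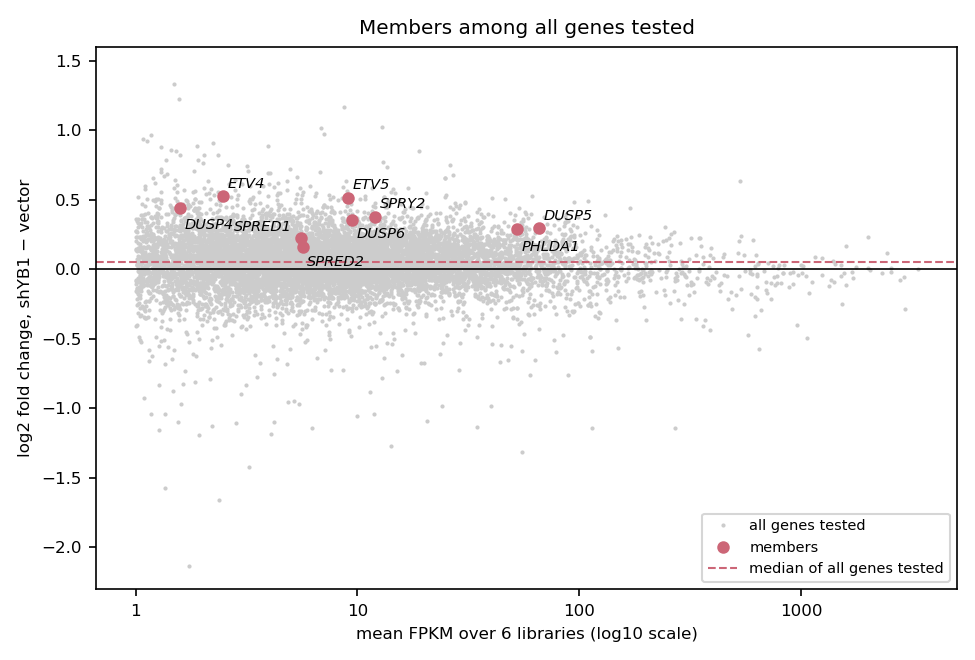
Log2 fold change (shYB1 minus vector) against the mean FPKM over the 6 libraries (log10 scale) for the 10439 genes tested (grey) and the 9 tested members (red). The members lie above the dashed median of 0.055 at every level, from DUSP4 near 1 FPKM to DUSP5 above 60 FPKM.

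Ratios of related members were taken within each library, on FPKM + 0.1, and 5 pairs were compared between the groups with two-sided exact permutation tests, which cannot give a p under 0.1 for 3 libraries against 3. The log2 ratio of ETV4 to ETV5 was -1.83 ± 0.136 in vector cells and -1.82 ± 0.0642 in shYB1 cells. The groups overlapped, with a difference of 0.0089 (95% confidence interval -0.23 to 0.25, exact permutation p = 1, adjusted p = 1 over the 5 pairs). For SPRED1 to SPRED2 the difference was 0.060 (interval -0.22 to 0.34, exact permutation p = 0.6, adjusted p = 0.75). For DUSP4 to DUSP6 it was 0.087 (interval -0.044 to 0.22, exact permutation p = 0.2, adjusted p = 0.333).
With the pseudocount of 0.1, the ratio of DUSP5 to DUSP6 was the only one of these 5 to separate the groups, with log2 values of 2.83, 2.81 and 2.83 for the vector against 2.78, 2.71 and 2.80 for shYB1. The difference was -0.062 (interval -0.14 to 0.019, exact permutation p = 0.1, adjusted p = 0.333), so DUSP6 gained slightly on the more abundant DUSP5 in these libraries without passing a test. The ratio of SPRY2 to SPRY4 differed by -0.17 (interval -0.39 to 0.051, exact permutation p = 0.2, adjusted p = 0.333), and its sign rests on the pseudocount, being 0.22 with a pseudocount of 1 and -0.42 with one of 0.01. Separation rests on the pseudocount too. With a pseudocount of 1 the groups overlapped for DUSP5 to DUSP6 (exact permutation p = 0.2) and separated for SPRY2 to SPRY4 (exact permutation p = 0.1), and with one of 0.01 SPRY2 to SPRY4 and DUSP4 to DUSP6 separated as well (exact permutation p = 0.1 each). The intervals assume normal errors.

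**Figure D4:**
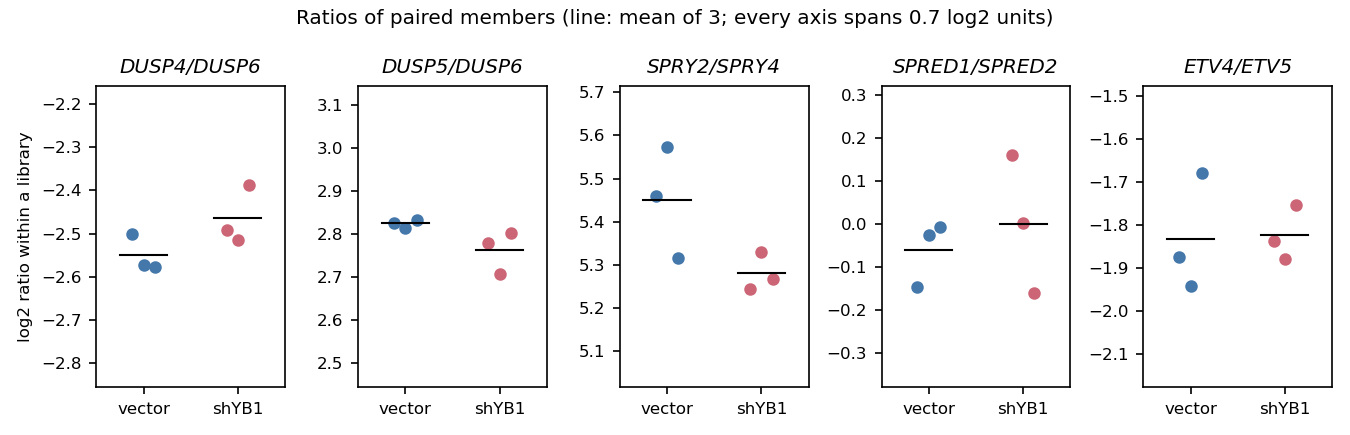
Log2 ratio of 2 related members within each library, for the 3 vector libraries (blue) and the 3 shYB1 libraries (red), with the mean of each group as a line. Every axis spans the same number of log2 units around its own middle. At the pseudocount of 0.1 used here, the groups overlap for each pair except DUSP5/DUSP6.

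The kinases and adaptors that carry the signal to ERK showed no such common rise. In a list of 19 genes of the cascade, from SOS and RAS to RSK, all tested, 3 were higher, 2 lower and 14 not called, with a median log2 fold change of 0.050, against 18.7% higher, 6.93% lower and a median of 0.055 over all genes tested. After median-of-ratios scaling 3 were higher and 3 lower, against 11.4% and 12.0% of all genes tested. MAPK3, the gene of ERK1, fell from 26.3, 24.6 and 27.7 FPKM with the vector to 19.6, 20.6 and 21.0 FPKM with shYB1 (log2 fold change -0.36, standard error 0.050, adjusted p = 0.000798 from limma). HRAS, a small GTPase that activates RAF, rose from 6.49 ± 0.618 to 8.43 ± 0.172 FPKM (log2 fold change 0.38, adjusted p = 0.00353 from limma). Among the other calls, 2 named after their values were seen were the scaffold KSR1, higher, and the phosphatase PTPN11, lower. The call of PTPN11 was lost without any 1 of 5 libraries, with adjusted p of 0.101 and 0.112 without shYB1 replicates 2 and 3 and 0.0574, 0.114 and 0.0512 without vector replicates 1 to 3. With no filter and with a variance prior without trend it was lost too (adjusted p = 0.0694 and 0.0808 from limma).

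Other inhibitors of signaling through RAS, ERK or related kinases were called in the higher direction or not at all. Of 19 listed, 14 were tested by limma, and 5 were higher, 0 lower and 9 not called, with a median log2 fold change of 0.14, against 18.7% higher and 6.93% lower over all genes tested. In the deposited values the fold changes of 13 of the 14 were above 0, against 64.1% of all genes tested, and only that of SPRY1 was below. After median-of-ratios scaling 4 of the 14 were higher and 0 lower, against 11.4% and 12.0% of all genes. The list median was then 0.084, against 0.00099 over all genes tested. Named after their values were seen, DUSP1, DUSP3, DUSP16, RASA2 and SPRY1 then had log2 fold changes below 0 (-0.015, -0.016, -0.028, -0.0030 and -0.079). RASA3 and RASA1, GTPase-activating proteins that switch RAS off, rose from 6.58 ± 0.315 to 8.85 ± 0.0574 FPKM and from 5.67 ± 0.321 to 7.39 ± 0.192 FPKM (log2 fold changes 0.42 and 0.38, adjusted p = 0.000387 and 0.00148 from limma). ERRFI1, a feedback inhibitor of the EGF receptor, rose from 199.4 ± 3.44 to 227.4 ± 3.71 FPKM (log2 fold change 0.19, adjusted p = 0.00169 from limma). The remaining 2, named after their values were seen, were the phosphatases DUSP10 and DUSP7, and DUSP7 was not called after median-of-ratios scaling (adjusted p = 0.0806 from limma) or, with adjusted p of 0.133, 0.0530, 0.0562, 0.0783 and 0.0825, without shYB1 replicates 2 and 3 or vector replicates 1 to 3. Nor was DUSP7 called with no filter or after quantile normalization (adjusted p = 0.0596 and 0.0956 from limma). DUSP1 was also named after the values were seen, as the most abundant phosphatase of the list. It measured 355.7 ± 4.97 FPKM with the vector and 365.6 ± 4.37 FPKM with shYB1 (log2 fold change 0.040, adjusted p = 0.343 from limma). SPRY1 overlapped between the groups, at 1.12, 1.43 and 1.05 FPKM with the vector and 1.30, 1.02 and 1.18 FPKM with shYB1 (log2 fold change -0.028, adjusted p = 0.90 from limma). SPRY3 and SPRED3, the other genes of the Sprouty and Spred families, were under the filter.

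Other genes that ERK is known to induce were split. Of 20 listed and tested, 7 were higher, 5 lower and 8 not called, with a median log2 fold change of 0.11, against 18.7% higher and 6.93% lower over all genes tested. The 7 higher genes were CCND1, EPHA2, FOSL1, HBEGF, EREG, EMP1 and PHLDA2, and the 5 lower genes were EGR1, FOS, JUNB, IER2 and IER3. EREG, a ligand of the EGF receptor, rose from 19.0, 18.9 and 20.5 FPKM with the vector to 33.3, 33.2 and 31.8 FPKM with shYB1 (log2 fold change 0.75, standard error 0.044, adjusted p = 3.68e-06 from limma). FOS and JUNB, subunits of AP-1, fell from 411.3 ± 2.42 to 309.7 ± 2.60 FPKM and from 666 ± 17.3 to 480.2 ± 11.9 FPKM (log2 fold changes -0.41 and -0.47, adjusted p = 7.74e-06 and 9.07e-06 from limma). Named after their values were seen, to complete these counts, HBEGF, EMP1 and FOSL1 had log2 fold changes of 0.72, 0.56 and 0.49, and IER2, IER3 and EGR1 of -0.29, -0.21 and -0.12. After median-of-ratios scaling 6 were higher and 5 lower, against 11.4% and 12.0% of all genes. The call of EGR1 was lost without shYB1 replicates 1 or 2 or vector replicates 1 or 2, with adjusted p of 0.0929, 0.0512, 0.0547 and 0.0613. It was also lost after quantile normalization and with a variance prior without trend (adjusted p = 0.154 and 0.0864 from limma).
CCND1, EPHA2 and EPHA4 are often read together with several of the members as an ERK activity signature. CCND1, the gene of cyclin D1, rose from 212.4 ± 5.90 to 241.2 ± 7.39 FPKM (log2 fold change 0.18, adjusted p = 0.00427 from limma). EPHA2, itself induced by ERK, was called higher by a small margin (log2 fold change 0.12, adjusted p = 0.0178 from limma), a call lost after median-of-ratios scaling (adjusted p = 0.116) and without shYB1 replicates 1 or 2 or vector replicates 1 or 2 (adjusted p = 0.0649, 0.0502, 0.0608 and 0.0527). The call of EPHA2 was also lost after quantile normalization and with a variance prior without trend (adjusted p = 0.0875 and 0.0640 from limma). EPHA4, at 1.93 ± 0.0952 and 1.81 ± 0.190 FPKM, was not called (log2 fold change -0.095, adjusted p = 0.502 from limma).

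**Figure D5:**
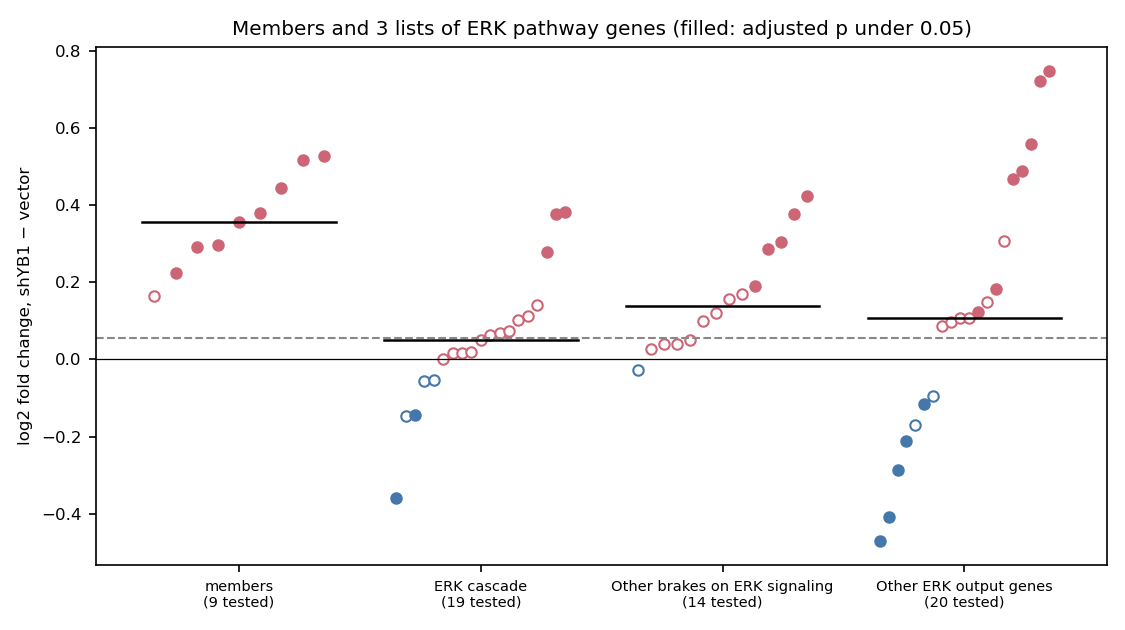
Log2 fold change (shYB1 minus vector) of the tested members and of the tested genes of 3 lists, each gene a point, sorted within its list. Filled points have an adjusted p under 0.05, red points lie above and blue points below 0, black lines are list medians, and the dashed line is the median of all genes tested. The members all lie above 0, the cascade is centered on the dashed line, and the other output genes spread to both sides, from -0.47 for JUNB to 0.75 for EREG.

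The wider KEGG MAPK signaling pathway, without the members, was close to the background. Of its 292 genes, 179 were tested, 36 (20.1%) were higher and 16 (8.94%) lower, with a median log2 fold change of 0.043. After median-of-ratios scaling 24 were higher and 25 lower, against 11.4% and 12.0% of all genes tested. Beside EREG and FOS, the smallest adjusted p belonged to CSF1, a cytokine of macrophages, which fell from 131.1 ± 3.39 to 93.4 ± 0.760 FPKM (log2 fold change -0.49, adjusted p = 5.84e-06 from limma).

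The profile of ETV5, the member with the smallest adjusted p, was compared over the 6 libraries with those of all other 10438 genes tested. The most similar were AKIRIN1, RASA3 and MTA2, each with Pearson's r of 0.999 over 6 libraries, and their log2 fold changes were 0.38, 0.42 and 0.30. Of the other members PHLDA1 (r = 0.998) and SPRY2 (r = 0.994) were closest and SPRED2 (r = 0.851) farthest. With 2 groups of 3 libraries such values mostly restate the difference between the groups, and 1306 genes had r above 0.9.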

How the data were processed

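mRNA of 3 vector and 3 shYB1 libraries of 786-O cells was analysed from 1 table in which the authors deposited FPKM for 20030 genes. The submitters' processing notes name Trimmomatic, HISAT2, Cufflinks, HTSeq and DESeq and the build GRCh38, without versions or roles, so which of them gave the deposited FPKM, and any filter, is not given in the sources used here. All 6 columns were used (0 left out), and no counts were used. Files hold no depth, so no counting interval was computed.

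The members and gene lists were chosen with earlier results of these data known. From FPKM, log2(FPKM + 0.1) was computed for 10439 genes whose mean reached 1 FPKM and compared with limma 3.58.1 in R 4.3.3 (expression trend, robust prior, two-sided, Benjamini-Hochberg over all genes tested), a step checked on artificial data. The study's criteria, a fold change of 2 and P under 0.05, were an alternative. Named genes were all members, YBX1, the 3 smallest adjusted p of each list, EPHA2, CCND1, EPHA4, MAPK3 and the 3 genes most like the leading member; others are said to be named later or complete a count or family. Results for some genes covered by this rule are not reported here. Settings varied were the pseudocount (1 or 0.01), the filter (none or 5 FPKM), median-of-ratios, common-total and quantile scaling, a prior without trend, the replicate block and each library left out. Both groups carry replicate numbers 1 to 3. Loci come from GENCODE release 29 (GRCh38), promoters from RefSeq (GRCh38.p14). Remaining steps used SciPy 1.17.1, pandas 2.3.3, NumPy 2.4.6 and matplotlib 3.10.9 under Python 3.11.15.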

Additional observations from a re-analysis of the deposited data

How the results depend on the processing

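The log2 fold changes of the members kept their direction under every alternative run, with calls as reported in 128 fits and a call lost in 5, all of SPRED1. Under the study's criteria (P below 0.05, unadjusted, with a mean fold change of 2) 0 members were called, and over all genes 4 were higher and 19 lower. Over all genes, 1192 were higher and 1253 lower after median-of-ratios scaling and 1270 and 1186 after quantile normalization, against 1956 and 723. The lower genes of KEGG MAPK signaling were then 25 and 26, against 16. The cascade had 1 lower gene, against 2, with no filter and with a prior without trend. With a pseudocount of 1 the difference of the ratio DUSP4 to DUSP6 was -0.038, and that of SPRY2 to SPRY4 was 0.22, or -0.42 with a pseudocount of 0.01. Leaving out 1 library at a time gave 7 to 8 members called higher, 1 to 2 lower genes of the cascade, and 23 to 37 higher (23 without shYB1 replicate 2) and 9 to 17 lower genes of KEGG MAPK signaling (9 without shYB1 replicate 1, 10 without shYB1 replicate 2). With the replicate number as a block 8 members were higher and 0 lower, and 2074 genes were higher and 760 lower. Same-numbered libraries did not deviate together (correlation across genes of -0.169 to -0.0082 for the 3 pairs, and -0.051 to 0.11 for the 6 other pairs). Whether they share more than a number cannot be decided from these correlations. Beyond the choices themselves, the cause of these changes was not tested. SPRY4 could not be fitted under the filters. FPKM without fragment counts limit what can be said of low genes such as SPRY4, DUSP4 and ETV4.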
